A study of Homo sapiens with 4 samples.

Results

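The genes described here encode 8 subunits of TFIID (TAF3, TBP, TAF2, TAF4, TAF5, TAF6, TAF7 and TAF10) and POLR2A, the catalytic subunit of RNA polymerase II. They were chosen by name, 9 genes in all, with earlier results of these data known. Other TFIID and polymerase genes were not analysed here. A ChIP peak was counted for a gene where it overlapped the hg19 span of the gene, rounded to 1 kb, with 2 kb added on each side. The spans held 9 of the 17887 TAF3 peaks, 10 of the 17975 H3K4me3 peaks and 35 of the 61456 RNAPII peaks in the authors' full lists. The cells were HCT116, an established human colorectal carcinoma line, with no treatment named in the labels apart from crosslinking in 1% formaldehyde for 10 min. The libraries were 1 ChIP each for TAF3 (a polyclonal antiserum against residues 290 to 389 of the human protein), for H3K4me3 (trimethylated lysine 4 of histone H3) and for RNAPII (RNA polymerase II), and 1 of input DNA, against which all peaks had been called. With 1 library per antibody no comparison has a replicate check, no p-value is given, and the intervals below cover counting error only.

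TFIID is the general transcription factor that recognises core promoters and starts assembly of the preinitiation complex, to which RNA polymerase II is then recruited. TBP binds DNA at the TATA element or its equivalent, TAF2 contacts the region around the start site, and TAF4, TAF5 and TAF6 belong to the core scaffold of the complex. TAF3 carries a PHD finger that binds H3K4me3, a mark of active promoters, TAF7 binds TAF1, the largest TFIID subunit, and TAF10 is shared with the SAGA coactivator complex. The genes below therefore encode part of the machinery to which the targets of the TAF3 and RNAPII antibodies belong.

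After removal of duplicate positions the libraries held 17411155 tags for TAF3, 12560129 for H3K4me3 and 16841238 for RNAPII, against 19185386 for input. A tag is 1 aligned read. At most 1 tag was kept per position, so the tag count of a densely covered peak is bounded. Before removal the libraries held 20290520 tags for TAF3, 20995096 for H3K4me3 and 20074412 for RNAPII, so H3K4me3 lost the most. Fold enrichment is the authors' own value for each peak and sets the summit against the background that MACS expected there from input. To pass the authors' filter a peak needed more than 5-fold enrichment and an estimated false discovery rate under 5%.

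Promoter sequences are shown for the 5 genes on which the results below turn, since every gene had its strongest peaks at its 5′ end. They come from RefSeq on GRCh38.p14, each with 250 bases before the annotated start and 50 after it, while all peak positions are on hg19, so the sequences were not placed within the peaks. Capitals mark matches, on either strand, to the 5 motifs named in the paragraph after the sequences. The windows are chr10:103367726-103368025 (plus strand) for TAF5, chr20:62065832-62066131 (minus strand) for TAF4, chr10:7818255-7818554 (plus strand) for TAF3, chr6:170554119-170554418 (plus strand) for TBP and chr17:7484116-7484415 (plus strand) for POLR2A.
TAF5: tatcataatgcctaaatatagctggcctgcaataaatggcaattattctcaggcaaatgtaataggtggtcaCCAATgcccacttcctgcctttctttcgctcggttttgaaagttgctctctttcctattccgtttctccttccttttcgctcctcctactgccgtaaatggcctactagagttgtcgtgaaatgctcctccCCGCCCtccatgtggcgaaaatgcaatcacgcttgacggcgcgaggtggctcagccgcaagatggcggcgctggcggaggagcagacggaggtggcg
TAF4: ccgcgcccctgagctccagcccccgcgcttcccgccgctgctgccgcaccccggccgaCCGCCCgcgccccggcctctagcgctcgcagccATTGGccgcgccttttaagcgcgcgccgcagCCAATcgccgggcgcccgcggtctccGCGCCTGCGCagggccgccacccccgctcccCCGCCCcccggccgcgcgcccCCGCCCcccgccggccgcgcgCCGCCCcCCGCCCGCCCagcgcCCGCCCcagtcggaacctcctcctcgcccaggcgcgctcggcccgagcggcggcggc
TAF3: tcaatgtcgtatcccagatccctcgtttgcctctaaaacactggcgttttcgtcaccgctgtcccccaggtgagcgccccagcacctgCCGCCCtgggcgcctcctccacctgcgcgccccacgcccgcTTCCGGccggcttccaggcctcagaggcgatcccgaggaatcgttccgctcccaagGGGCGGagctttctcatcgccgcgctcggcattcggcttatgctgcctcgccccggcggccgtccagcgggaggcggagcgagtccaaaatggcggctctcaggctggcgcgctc
TBP: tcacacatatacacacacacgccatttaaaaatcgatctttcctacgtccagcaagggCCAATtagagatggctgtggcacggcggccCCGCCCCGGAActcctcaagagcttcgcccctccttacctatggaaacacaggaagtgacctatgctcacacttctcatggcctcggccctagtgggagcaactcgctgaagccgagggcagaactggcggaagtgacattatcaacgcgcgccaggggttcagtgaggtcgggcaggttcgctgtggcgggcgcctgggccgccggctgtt
POLR2A: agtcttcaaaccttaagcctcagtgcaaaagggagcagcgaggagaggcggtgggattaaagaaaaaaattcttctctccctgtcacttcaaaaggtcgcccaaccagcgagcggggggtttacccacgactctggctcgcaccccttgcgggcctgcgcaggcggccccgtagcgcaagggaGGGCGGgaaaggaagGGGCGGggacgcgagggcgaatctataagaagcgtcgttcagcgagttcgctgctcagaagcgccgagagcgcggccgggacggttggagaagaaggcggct

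RefSeq promoters were matched for 8 of the 9 genes, without TAF2, and TAF6 had 3 annotated starts. GGGCGG, the letters of a GC box, was present in a promoter of 8 of 8 genes, and in 44.9% of 34943 RefSeq promoters of the same length. The letters TATAAA were found in 0 of 8 genes, beside 11.6% of all promoters. CCAAT was present in 4 of 8 genes and 34.6% of all promoters, CCGGAA, the letters of an ETS site, in 4 of 8 and 17.2%, and the core of the NRF1 motif in 2 of 8 and 5.74%. In the TBP promoter a GGGCGG match and a CCGGAA match overlap each other, and in the TAF4 promoter neighbouring GGGCGG matches overlap. The TAF4 window stood apart from the other windows in base composition, with 56 CG dinucleotides and 85.0% G and C. The other windows held 11 to 38 CG dinucleotides, and the median over all promoters was 14.

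Each of the 9 genes had a TAF3, an H3K4me3 and an RNAPII peak at its 5′ end, here called its promoter peaks. All 27 of them passed the authors' filter, which 65.8% of TAF3 peaks, 79.5% of H3K4me3 peaks and 40.7% of RNAPII peaks of the full lists did. At 9 of 9 genes the TAF3 and RNAPII promoter peaks both overlapped the H3K4me3 promoter peak. An overlap with both was found for 82.6% of all H3K4me3 peaks in the full lists and 80.6% in the filtered lists, so such overlap was common among H3K4me3 peaks in general. The share of all hg19 genes with such peaks was not analysed here.

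TAF3 enrichment at these promoters spanned a 4.11-fold range, from 30.8-fold at TAF10 to 126-fold at POLR2A, with a median of 65.9-fold. The median over the authors' filtered TAF3 list was 36.1-fold. Of the 9 promoter peaks, 8 lay above that median, beside 50.0% of filtered peaks, and 5 lay above the upper quartile of 53.0-fold, beside 24.6%. TAF2 at 52.8-fold and TBP at 52.1-fold were just under the quartile. TAF10 was the 1 gene below the filtered median.

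The TAF3 promoter peak of POLR2A, at chr17:7386435-7388745, had 126-fold enrichment and 575 tags (exact Poisson 95% interval 529 to 624). That of TAF5, at chr10:105127021-105128900, had 124-fold enrichment and 1046 tags (984 to 1111). Both stood above 99% of the full TAF3 list in fold enrichment, at the 99.4th percentile for POLR2A and the 99.3rd for TAF5. TAF5 encodes a WD40-repeat subunit of the TFIID core.

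Next by fold enrichment were the scaffold genes TAF6 and TAF4. TAF6, whose product pairs with TAF9 through a histone fold, had a TAF3 peak at chr7:99716035-99718106 of 94.3-fold with 455 tags (414 to 499). TAF4, whose product pairs with TAF12, had one at chr20:60640105-60642181 of 82.7-fold with 478 tags (436 to 523). Their tag intervals overlap, so the tags of these peaks do not separate these genes.

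The intronless gene TAF7 had a TAF3 peak of 65.9-fold and 231 tags (202 to 263) at chr5:140699532-140701013. TAF2 had 52.8-fold and 243 tags (213 to 276) at chr8:120844372-120845697. TBP had 52.1-fold and 403 tags (365 to 444) at chr6:170861632-170864136. The TBP peak spanned 2505 bp, and those of TAF7 and TAF2 spanned 1482 and 1326 bp. Among the other genes, the POLR2A peak had 126-fold over 2311 bp and the TAF10 peak 30.8-fold over 1647 bp. The part of width in the fold of TBP was not tested.

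The gene of TAF3 itself was near the bottom of this order. Its TAF3 peak, at chr10:7859813-7861442, had 40.7-fold enrichment and 291 tags (259 to 326), at the 72.6th percentile of the full list. TAF10 was lowest, with 30.8-fold and 216 tags (188 to 247) at chr11:6632582-6634228, at the 59.9th percentile. By tags, 5 of the 8 neighbouring pairs in the order had overlapping intervals, among them TAF3 with TAF2, TAF2 with TAF7 and TAF7 with TAF10. TAF5, POLR2A and TBP were each separated from the gene below.

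**Figure D1:**
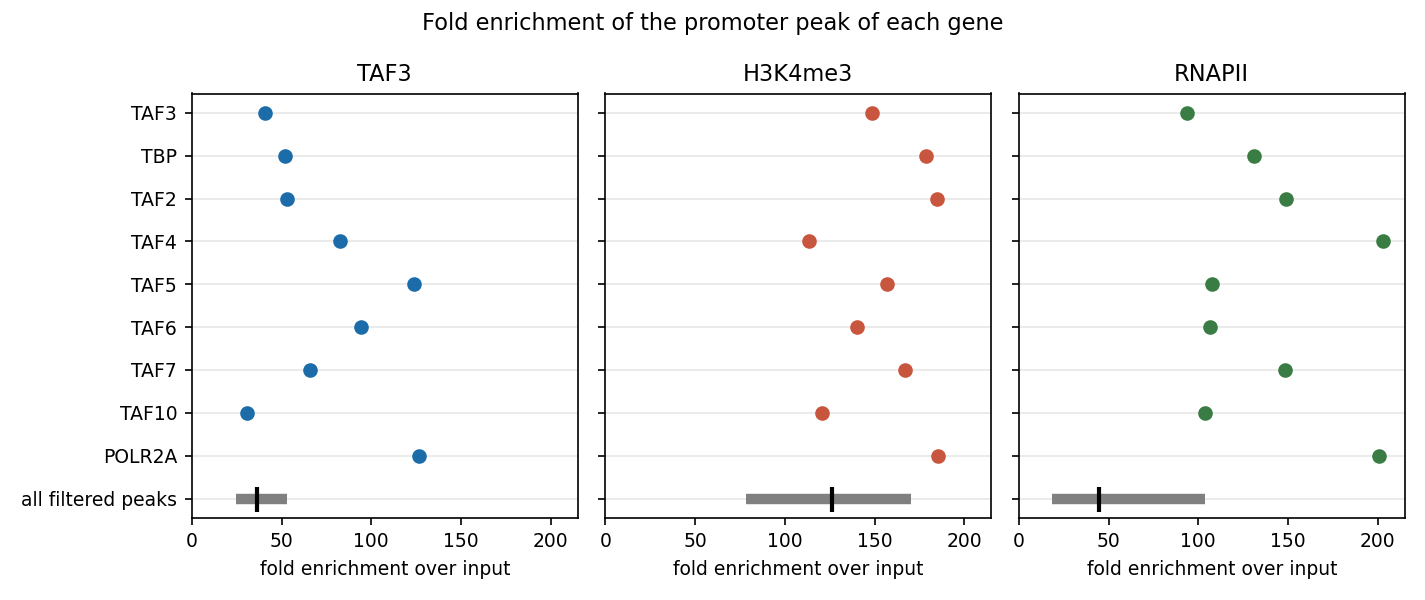
Fold enrichment over input (horizontal axis, linear) of the TAF3, H3K4me3 and RNAPII promoter peak of each of the 9 genes, 1 library per antibody. The bottom row gives the median (tick) and quartiles (bar) of the authors' filtered list. TAF3 enrichment runs from 30.8-fold at TAF10 to 126-fold at POLR2A, while all 9 RNAPII values lie above the list median of 44.8-fold.

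By fold enrichment H3K4me3 had the narrowest range of the 3 antibodies among the genes, 1.63-fold beside 4.11-fold for TAF3 and 2.17-fold for RNAPII. By tags it had the widest, 5.36-fold beside 4.84-fold for TAF3 and 3.60-fold for RNAPII. H3K4me3 enrichment ran from 114-fold at TAF4 to 185-fold at POLR2A, with a median of 157-fold, beside a filtered list median of 126-fold. Above that median lay 7 of 9, beside 50.0% of filtered peaks, and 3 lay above the upper quartile of 170-fold, beside 25.0%. POLR2A (185-fold), TAF2 (185-fold) and TBP (179-fold) were the 3 highest. TAF7 had 167-fold, TAF5 157-fold, TAF3 149-fold, TAF6 140-fold and TAF10 121-fold. H3K4me3 scores of all 9 genes had reached the value that MACS writes for the smallest p-values, so the scores do not rank them.

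TBP had the most H3K4me3 tags, 1990 (1904 to 2079), in a peak of 4262 bp at chr6:170860670-170864931, whose width ranked at the 98.1st percentile of the H3K4me3 list. The TAF3 gene followed with 1290 tags (1221 to 1362) and TAF2 with 1173 (1107 to 1242), whose intervals overlap. In tags per kb TBP did not lead, with 467 beside 466 at TAF3 and 480 at TAF2. By tags TAF5 had 1020, POLR2A 973, TAF6 886, TAF10 774 and TAF7 692, and neighbours in this order had overlapping intervals.

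TAF4 had the fewest H3K4me3 tags by a clear margin, 371 (334 to 411) in a peak of 2108 bp at chr20:60640058-60642165. It was also the 1 gene with a further H3K4me3 peak in its span. That peak, at chr20:60638838-60639884 inside the gene, held 65 tags at 24.9-fold and passed the filter. The low H3K4me3 count at TAF4 went with the highest G and C content of the promoters examined, and the part of base composition in this result was not tested.

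RNAPII enrichment at the 9 promoters ran from 93.6-fold at the TAF3 gene to 203-fold at TAF4, with a median of 131-fold. The filtered RNAPII list had a median of 44.8-fold, which 9 of 9 exceeded, beside 50.0% of filtered peaks. The upper quartile of 104-fold was exceeded by 8 of 9, beside 25.0%, with TAF10 just above it at 103.95-fold. The filtered RNAPII list, of 25013 peaks beside 11765 for TAF3, also holds peaks away from promoters. A rank among promoters alone was not computed, so these shares do not set the 9 genes apart from other promoters. TAF4 (203-fold) and POLR2A (201-fold) stood above the rest, followed by TAF2 (149-fold), TAF7 (148-fold) and TBP (131-fold). TAF5 had 107-fold and TAF6 107-fold. TAF4 thus had the highest RNAPII fold and the lowest H3K4me3 fold of the 9 genes. By RNAPII tags it was only 5th, with 558 (513 to 606), an interval that overlapped those of TBP and TAF6.

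By tags the RNAPII order was different. TAF10 led with 1498 tags (1423 to 1576), spread over 7901 bp at 190 tags per kb, the lowest density of the 9. POLR2A had 1164 tags (1098 to 1233) in 2368 bp, or 492 tags per kb, the densest of the 9. TAF5 had 697 tags (646 to 751). The other genes lay between 416 tags at TAF3 and 563 at TBP, and each of them overlapped its neighbour in interval.

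**Figure D2:**
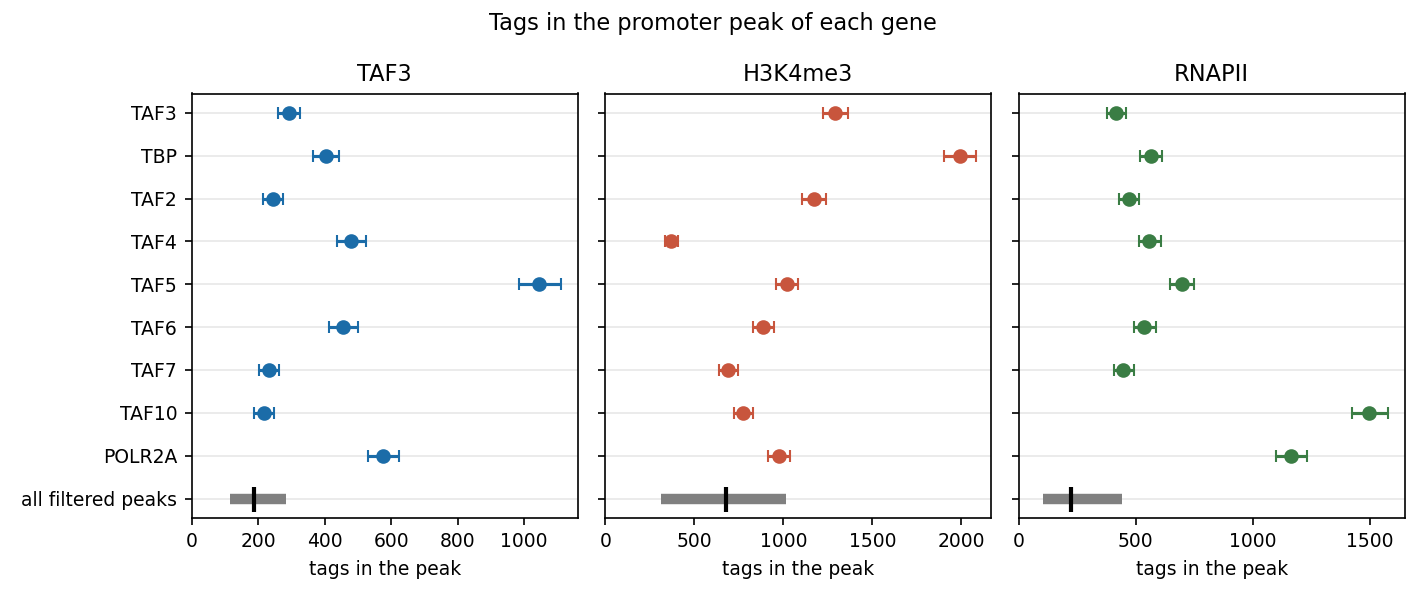
Tags (horizontal axis, linear from 0) in the promoter peak of each of the 9 genes, with exact Poisson 95% intervals for counting error, and in the bottom row the median and quartiles of the authors' filtered list. TAF5 stands apart with 1046 TAF3 tags, TBP with 1990 H3K4me3 tags and TAF10 with 1498 RNAPII tags. The TBP and TAF10 peaks are wide (4262 and 7901 bp) and do not lead in tags per kb. TAF4 is lowest for H3K4me3 with 371.

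The balance between the antibodies differed among the genes. To compare it with the rest of the genome, each of the 11484 filtered TAF3 peaks that overlapped both a filtered H3K4me3 and a filtered RNAPII peak was given the ratio of its TAF3 value to that of its partner. Tags are not scaled to depth, so a ratio has meaning only by its rank among the others. The ratio of TAF3 fold to H3K4me3 fold was 0.79 at TAF5, 0.73 at TAF4, 0.68 at POLR2A and 0.67 at TAF6, beside a median of 0.274 over all such peaks. These 4 of 9 genes lay above the 90th percentile, beside 10.0% of all peaks. They were also the 4 genes of highest TAF3 fold, and H3K4me3 fold spanned only a 1.63-fold range, so the fold ratio largely repeats the TAF3 order. TAF7 had 0.395, and TBP, TAF2, TAF3 and TAF10 lay between 0.255 and 0.292, near the median of all peaks. In tags the same 4 genes were above the 90th percentile, led by TAF4 with 1.29 TAF3 tags per H3K4me3 tag (99.4th percentile) and TAF5 with 1.03 (98.7th). In tags per bp 3 of them were, TAF4, TAF5 and POLR2A, with TAF6 at the 88.2nd percentile.

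TAF5 and TAF6 were also high against RNAPII, in fold and in tags. TAF5 was the 1 gene of the 9 whose TAF3 fold exceeded its RNAPII fold, with a ratio of 1.15 at the 99.9th percentile, beside a median of 0.346 over all peaks. TAF6 followed at 0.88 (99.2nd percentile) and POLR2A at 0.63 (94.7th). The other 6 genes had ratios of 0.296 to 0.445. In tags the genes above the 90th percentile were TAF5, TAF4, TAF6 and TBP, so that membership depended on the measure. TAF5 had 1.50 TAF3 tags per RNAPII tag (99.8th percentile), TAF4 0.857 (96.4th), TAF6 0.847 (96.1st) and TBP 0.716 (90.7th). POLR2A was at the 60.3rd percentile in tags. TAF4, at the 96.4th percentile in tags, was at the 67.6th in fold, and TBP was at the 65.0th in fold. TAF10, with its wide RNAPII peak, had 0.144 TAF3 tags per RNAPII tag (3.90th percentile).

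**Figure D3:**
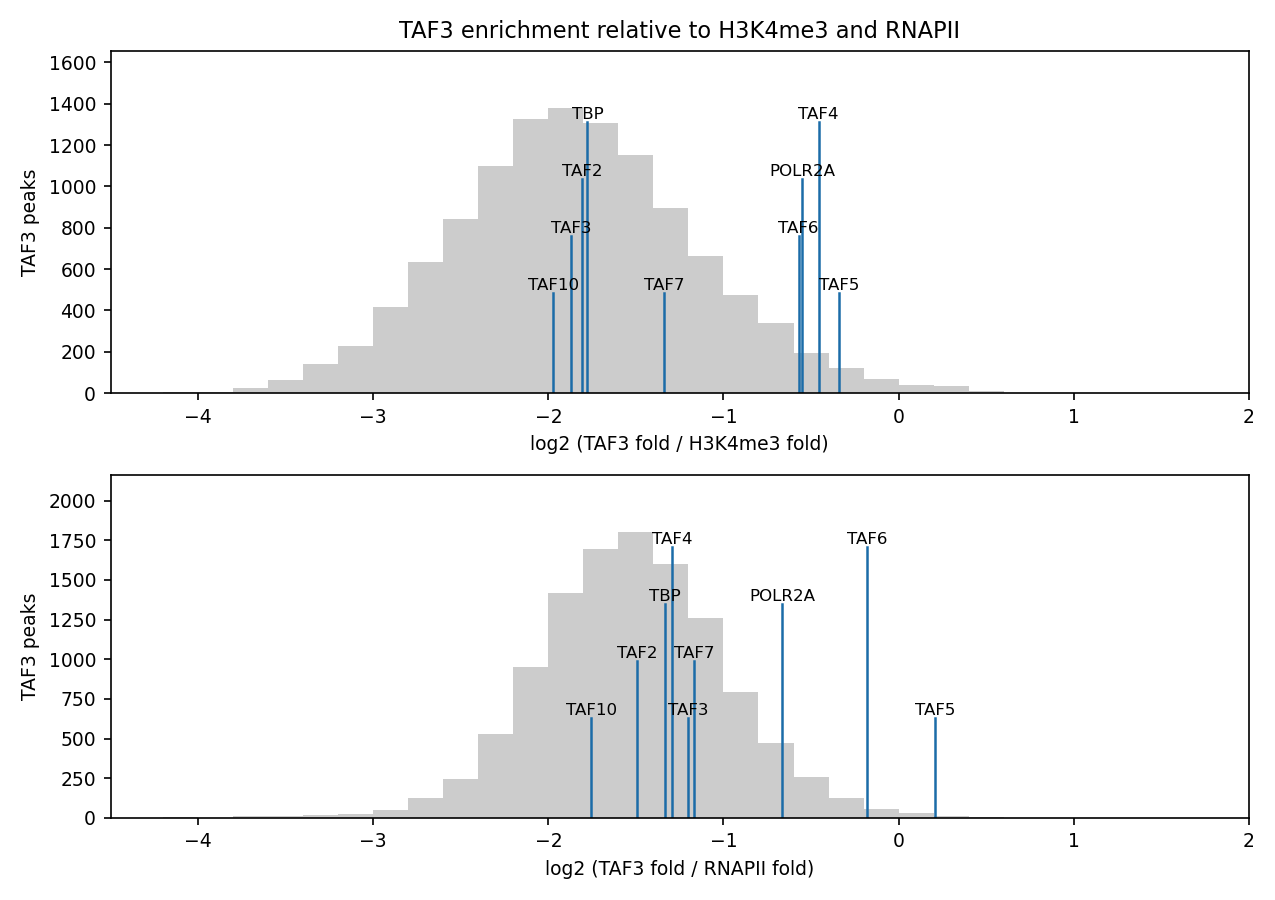
Ratio of TAF3 fold enrichment to H3K4me3 (upper panel) and RNAPII (lower panel) fold enrichment, on a log2 axis, for the 9 genes (labelled lines, whose heights have no meaning) over the 11484 TAF3 peaks with both partners (grey histogram, peaks per bin). TAF5, TAF4, POLR2A and TAF6 lie on the right of the upper panel, and TAF5 (ratio 1.15) and TAF6 (0.88) in the right tail of the lower one.

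Across the 9 genes the antibodies were only loosely ordered alike. For fold enrichment, Spearman's rho was 0.52 for TAF3 with RNAPII, 0.27 for TAF3 with H3K4me3 and 0.33 for H3K4me3 with RNAPII. Over the 11484 TAF3 peaks the same values were 0.74, 0.56 and 0.56. With tags in place of fold, rho over the 9 genes was 0.28 for TAF3 with RNAPII, 0.083 for TAF3 with H3K4me3 and -0.13 for H3K4me3 with RNAPII, so the last changed sign. The tag values over all these peaks were 0.73, 0.71 and 0.54. All values share 1 input library, and 9 genes give these coefficients little precision. By the distance of log2 fold enrichment over the 3 antibodies, the genes most alike were TBP and TAF2 (0.19), TAF2 and TAF7 (0.35) and TBP and TAF7 (0.39).

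TAF3 and RNAPII summits nearly coincided. The summit is the position of highest tag pileup in a peak. Their distance was 2 bp at TAF3, 4 bp at TAF6 and 8 bp at TAF10. It was 13 bp at TAF5, 14 bp at TAF7, 15 bp at POLR2A, 26 bp at TAF2 and 42 bp at TBP. So 8 of 9 genes had the summits within 50 bp, beside 54.2% of the filtered TAF3 peaks on an RNAPII peak. The exception was TAF4, where the RNAPII summit lay 205 bp from the TAF3 summit, towards the gene. The median was 14 bp, against 43 bp over the 11484 peaks with both partners. The TAF3 promoter peaks of the 9 genes held a median of 403 tags, beside 187 in the filtered TAF3 list. Summit distances among peaks of like strength were not computed, so these values do not set the 9 genes apart.

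The H3K4me3 summit lay farther off, 112 bp from the TAF3 summit at TAF2 to 1496 bp at TBP, with a median of 303 bp. Over all such TAF3 peaks the median was 227 bp. It was on the gene side of the TAF3 summit at 8 of 9 genes. The distance on that side was 301 bp at TAF3, 303 bp at TAF6 and 325 bp at TAF5. It was 170 bp at TAF7, 376 bp at TAF10 and 620 bp at POLR2A. TAF4 was again the exception, with its H3K4me3 summit 287 bp on the far side from the gene. Gene direction came from the RefSeq table, except for TAF2, where it came from general knowledge, and the same count over all genes was not analysed here.

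At TBP the TAF3 summit (689 bp) and the RNAPII summit (647 bp) lay before the 5′ edge of the rounded span, and the H3K4me3 summit 807 bp inside it. The distance of 1496 bp between TAF3 and H3K4me3 summits ranked at the 98.5th percentile of all TAF3 peaks with both partners. RefSeq places PSMB1, which encodes a proteasome subunit, next to TBP on its 5′ side. With spans known to 1 kb, peaks of TBP and of PSMB1 cannot be told apart here. The same holds for CNPY4, which overlaps TAF6 on the other strand at its 5′ side, and for ZBTB4, which lies on the other strand on the 5′ side of POLR2A. RefSeq also places DSCC1 within 5 kb of TAF2 and TPP1 within 5 kb of TAF10, both on the 5′ side, SLC35G6 within 5 kb of POLR2A on that side, MBLAC1 overlapping TAF6, and non-coding RNA genes on the 5′ side of TAF3, TAF2 and TAF4. Peaks at the 5′ ends of these genes cannot be assigned to the TFIID gene alone.

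**Figure D4:**
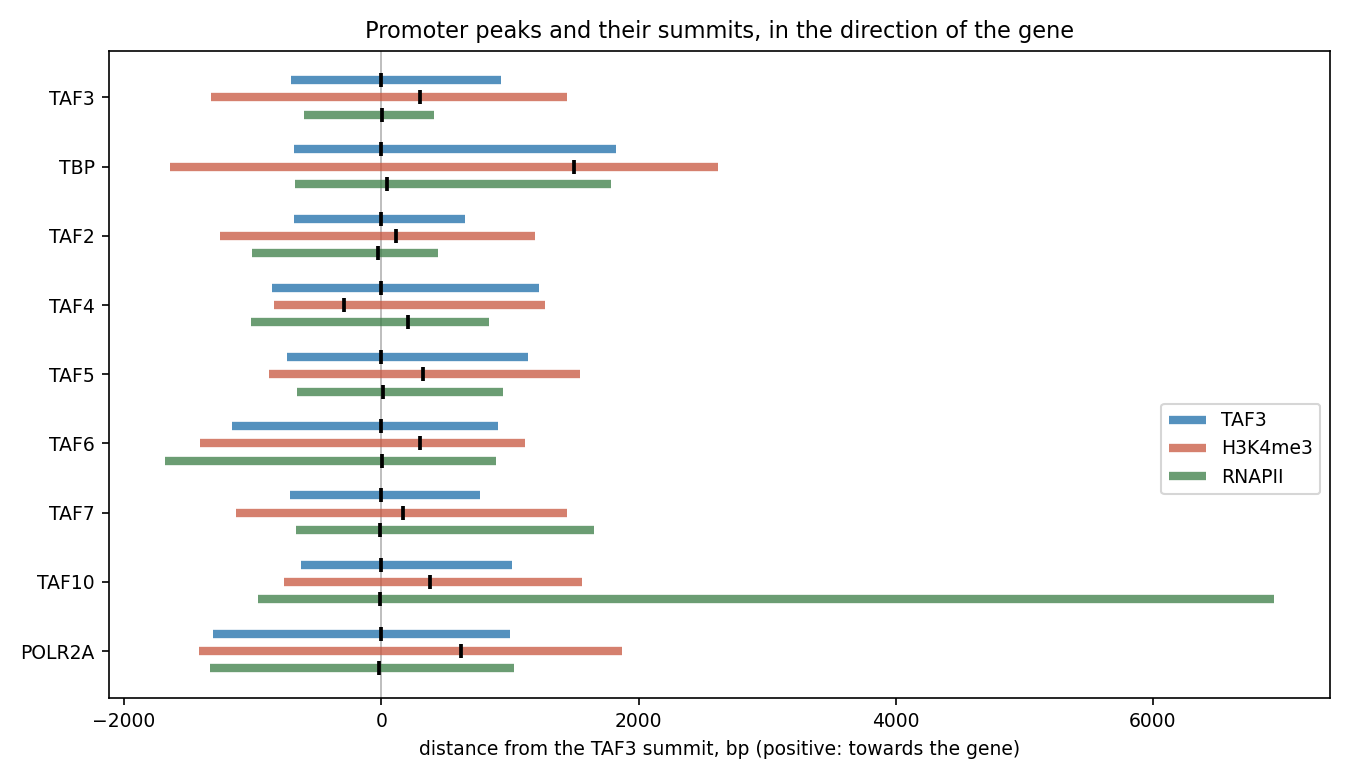
Extent (bars) and summit (black ticks) of the promoter peaks of each gene, by distance in bp from the TAF3 summit with the gene to the right. RNAPII summits lie within 50 bp of 0 at every gene except TAF4, H3K4me3 summits lie to the right at 8 of 9, and the RNAPII peak of TAF10 runs to 6943 bp.

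H3K4me3 peaks were the wider frame of these promoters, 1.01 to 1.84 times the width of the TAF3 peak. TAF3 peaks lay wholly inside the H3K4me3 peak at 8 of 9 genes, and for 99.2% of their length at TAF4. RNAPII peaks lay wholly inside at TAF3, TBP, TAF2, TAF5 and POLR2A. At TAF10 the RNAPII peak, chr11:6626658-6634558, ran 5386 bp past the H3K4me3 peak on the gene side, so that 29.3% of it lay inside. Its width ranked at the 99.0th percentile of the RNAPII list. RefSeq places ILK, which encodes integrin-linked kinase, across TAF10 on the other strand and RRP8 beyond it, and RNAPII over these genes cannot be told apart from RNAPII that has passed TAF10.

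The number of RNAPII peaks besides the promoter peak ranged from none at TAF3, TAF2 and TAF10 to 12 at POLR2A. At TAF10 the promoter peak itself covered 91.2% of the window, so this count does not measure RNAPII beyond its promoter. Besides the 9 promoter peaks the spans held 26 RNAPII peaks, 10 of which passed the filter. All 26 were weak beside the promoter peaks, at 5.78- to 20.8-fold. The 10 filtered ones lay at 4 genes, POLR2A (4), TAF6 (4), TAF5 (1) and TAF7 (1).

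At POLR2A, filtered ones lay inside the gene at chr17:7399026-7401957 (157 tags, 6.72-fold), chr17:7409759-7413101 (138 tags, 11.7-fold) and chr17:7413766-7416884 (204 tags, 6.21-fold). Another lay 1090 bp past its 3′ edge, at chr17:7419090-7420030 (64 tags, 20.8-fold). Together RNAPII peaks covered 55.6% of the POLR2A window, and its promoter peak held 57.4% of the RNAPII peak tags (Wilson 95% interval 55.2 to 59.5%).

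At TAF6 the promoter peak held less than the others together, 45.2% of the RNAPII peak tags (42.4 to 48.0%). The 4 further filtered peaks ran without long gaps over the 3′ part of the gene, from chr7:99703405-99706733 (293 tags, 13.8-fold) and chr7:99706867-99708329 (126 tags, 16.8-fold) to chr7:99708387-99710291 (122 tags, 12.9-fold) and chr7:99710783-99712682 (91 tags, 8.23-fold). RefSeq shows AP4M1 overlapping TAF6 at this end on the other strand. TAF5 had 1 further peak, at its 3′ end, chr10:105145754-105148855 (266 tags, 18.8-fold), where RefSeq has ATP5MK overlapping it on the other strand. Its promoter peak held 72.4% (69.5 to 75.1%).

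The longest genes, TAF3, TAF2 and TAF4, had no filtered RNAPII peak besides that at the promoter, and nor did the shorter TBP and TAF10. TAF3, with a span of 199 kb, and TAF2, with 102 kb, had no further RNAPII peak at all. RNAPII peaks covered 0.499% and 1.37% of their windows. The share that a promoter peak covers falls as the window grows, so these shares do not rank genes of unlike length. TAF4, with 91 kb, had 3 weak ones of 6.14- to 9.49-fold and 56 tags in all, none in the filtered list. TBP had 2, at 10.7- and 20.8-fold, both past its 3′ edge and neither in the filtered list. RefSeq places PDCD2 within 5 kb of TBP on that side, on the other strand, so RNAPII peaks there cannot be assigned to TBP alone. A peak list shows only places that passed the MACS threshold, so RNAPII spread thinly along a long gene was not detectable in it.

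**Figure D5:**
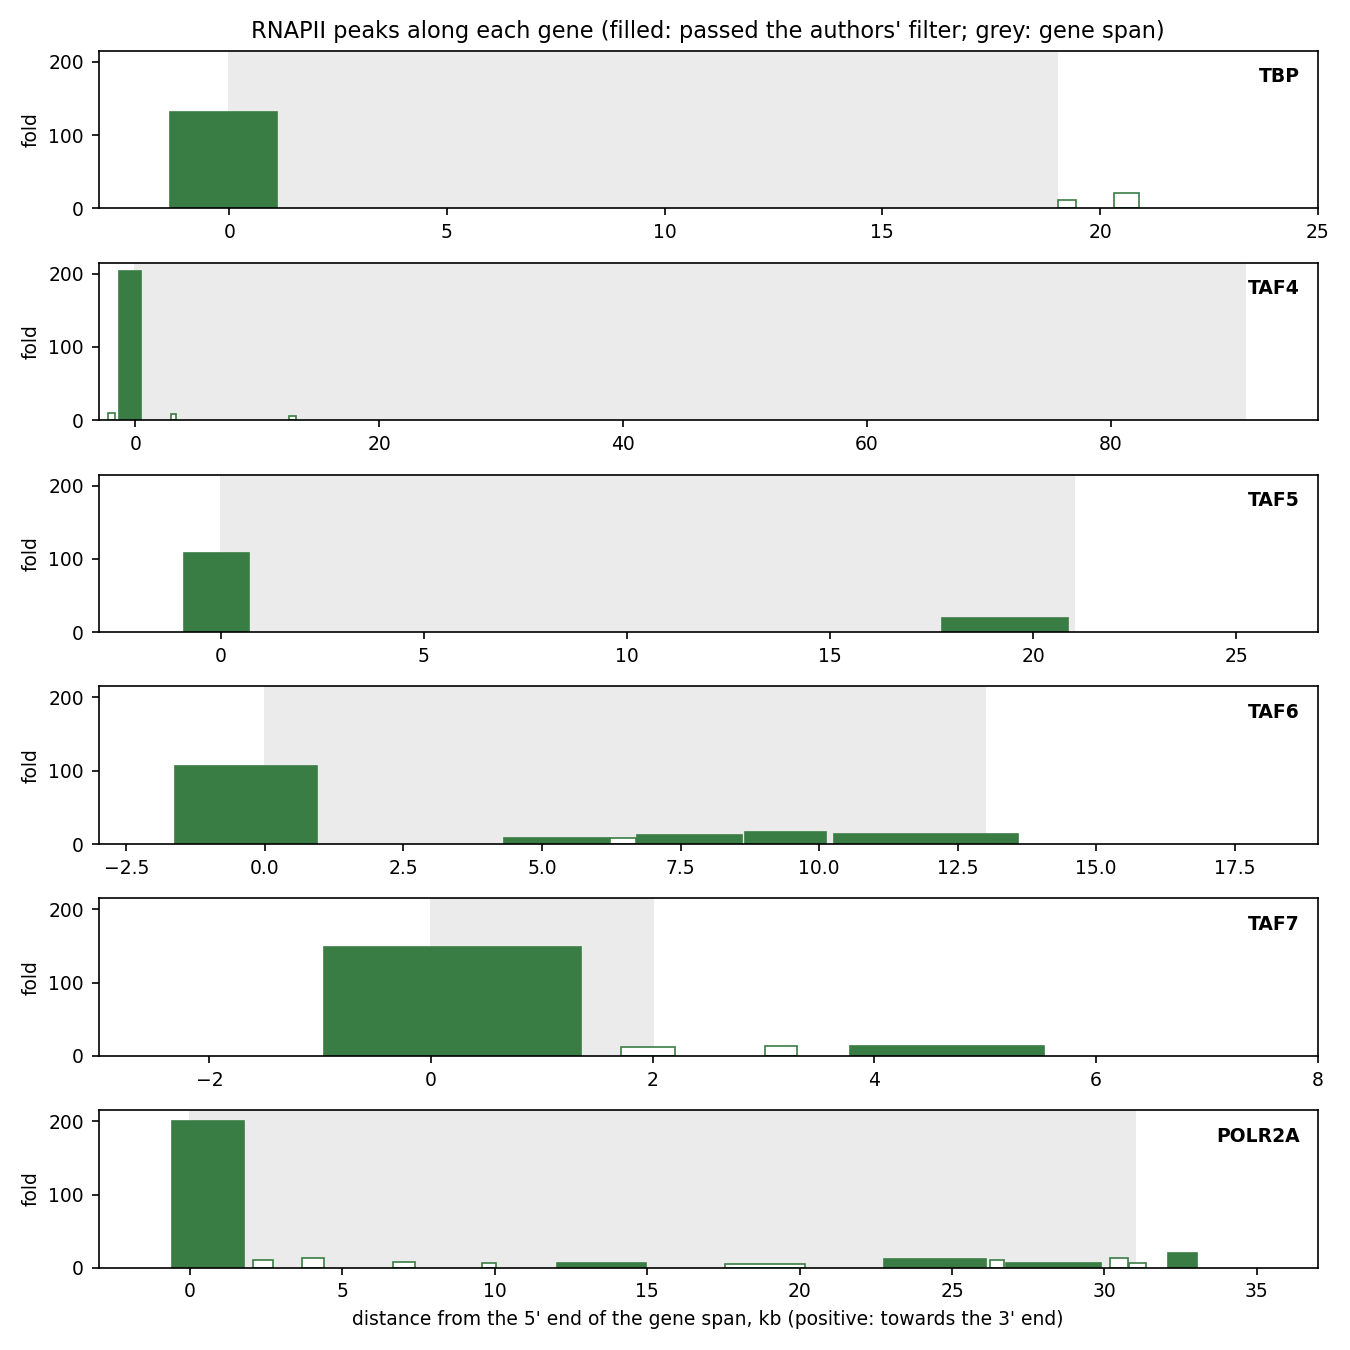
Fold enrichment (vertical axis) of RNAPII peaks along the 6 genes that had more than 1, by distance in kb from the 5′ edge of the gene span. Filled bars passed the authors' filter and open ones did not, and grey marks the span. The promoter peak is the tallest bar in each panel, and further filtered peaks (10 in all) appear at TAF5, TAF6, TAF7 and POLR2A.

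The window of 2 kb decided which peaks at the edges were counted. Just inside it lay RNAPII peaks at TAF7, 1780 bp past the span (76 tags, 13.4-fold), and at TAF4, 1625 bp from it (21 tags, 9.49-fold). Just outside lay RNAPII peaks at TBP, 2065 bp from the span (26 tags, 8.15-fold), and at TAF5, 2402 bp from it (22 tags, 8.96-fold). Filtered RNAPII peaks also lay outside it, at TAF6 2447 bp (121 tags, 17.5-fold) and at TBP 2667 bp (282 tags, 28.1-fold) from the span. Farther out, between 3 and 5 kb, TAF6 had filtered RNAPII peaks at 3275 bp (85.4-fold) and 4707 bp (117-fold) and POLR2A had one at 3138 bp (42.9-fold). At that range strong H3K4me3 peaks stood near POLR2A (3112 bp, 159-fold) and TAF6 (3239 bp, 158-fold), each with a TAF3 peak, of 28.2-fold at POLR2A and 30.6-fold at TAF6. No TAF3 peak besides the promoter peak lay within 2 kb of any of the 9 spans.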

How the data were processed

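TAF3, H3K4me3 and RNAPII ChIP and input DNA were sequenced from HCT116 cells, 1 library each, grouped by sample title. The submitters' processing notes name CASAVA 1.8.2, MACS 1.4.2 and hg19. How reads were aligned is not given in the sources used here. MACS called the peaks of each antibody against 1 shared input at a p cutoff of 1e-05, keeping 1 tag per position, per the file headers. Of the values the authors deposited for a peak, the tag count is raw, fold enrichment is a ratio to the local input background, the score is the negative log10 of p scaled by 10 (3100 where p was too small to write) and the false discovery rate is in percent.

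Computed here: peaks overlapping each span by at least 1 bp, the peak nearest its 5′ edge within 2 kb (the promoter peak), midrank percentiles (100 times the share of peaks below, ties split evenly), summit distances, Poisson and Wilson intervals, and motif matches. All 9 genes are named by rule, with each TAF3 and H3K4me3 peak and the filtered RNAPII peaks in their spans. Partner peaks over the whole list are those of highest fold, and summit distances there are to the nearest summit of an overlapping peak. Genes, lists and motifs were chosen with earlier results of these data known. Other TFIID and polymerase genes and the share of all genes were not analysed here, since no hg19 annotation was at hand. Code was tested on simulated data (5 of 5 checks passed). It ran under Python 3.11.15 with scipy 1.17.1, numpy 2.4.6, matplotlib 3.10.9 and pandas 2.3.3.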

Additional observations from a re-analysis of the deposited data

How the results depend on the processing

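Alternatives gave 44 values. Of these, 42 stayed within a wide limit: counts by at most 1.5 times, and medians within the exact binomial interval of the median over the 9 genes. For the percentile of the TAF3-to-H3K4me3 tag ratio that interval ran from 33.0 to 98.7, so 73.6 and 84.3 counted as the same. Promoter distances of 1 and 5 kb and the choice of the highest-fold peak gave the main values again. The count of 42 is therefore weak evidence of stability. With the authors' filtered list in place of the full list, RNAPII peaks in the 9 spans numbered 19 in place of 35, and the median RNAPII percentile was 85.1 in place of 93.9, since the filtered list leaves out weak peaks. With a window of 5 kb, TAF3 peaks numbered 13 in place of 9 and RNAPII peaks 49 in place of 35, both inside the limit for counts. With 50% of a peak covered, 8 of 9 genes had both partners on H3K4me3. Alternatives chosen after seeing the data left out TBP, used the peak of highest fold for the side of the H3K4me3 summit, and used tags per bp for the ratio. No paired analysis was possible because each antibody has 1 library, and no replicate could be left out.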
